A study of Mus musculus with 7 samples.

Results

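The genes described here are 10 mouse genes of the cell's defence against reactive oxygen species: the transcription factors Foxo1 and Foxo3, the thioredoxin inhibitor Txnip, and the enzymes Sod1, Sod2, Cat, Gpx1, Gpx4, Prdx1 and Prdx2. They were chosen by name for their function, and are 10 of the 34932 genes to which reads were summed. RNA was sequenced in bulk from 7 bone marrow samples sorted for long-term blood stem cells (LT-HSCs), 4 of them with the label KO for B4galt1 and 3 with the label WT. The product of B4galt1 is a Golgi enzyme that adds galactose to glycoproteins. Per the labels, all mice had a 129S1/C57Bl/6 background, the KO mice with the genotype B4-/-. The series describes a knockout of the whole animal, so by its description the genotype is shared by the stem cells and the marrow around them. The sort kept cells without lineage markers that carried Sca-1, c-Kit and CD150 and lacked CD48. The sources used here give neither age nor sex. Whether each replicate is its own animal is not labelled, so the p-values rest on the spread among these libraries, which may be technical in part. Reads of Y-linked genes, given below, differed within both groups.

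As background, FoxO proteins are held in the cytoplasm when growth factor signals activate AKT, and enter the nucleus when those signals are low, where they switch on genes for stress resistance and cell cycle arrest. Blood stem cells of mice that lack FoxO proteins are known to accumulate reactive oxygen species and to leave quiescence. Superoxide dismutases turn superoxide into hydrogen peroxide. Catalase, glutathione peroxidases and peroxiredoxins remove the peroxide, the last of these with electrons from thioredoxin, which Txnip binds and blocks. FoxO activity is set largely by phosphorylation and location, neither of which an RNA level shows.

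Before the results, these libraries need a description. Totals ran from 23508985 to 34941390 estimated reads. B4galt1 RNA, the check of the labels, stood at 19.3, 14.9, 14.8 and 14.6 CPM (read counts scaled to a common library size) in KO replicates 1 to 4 and at 19.2, 24.4 and 11.3 CPM in WT replicates 1 to 3. The groups overlapped (log2 fold change -0.20, SE 0.270, edgeR adjusted p = 0.758), so the RNA level does not separate the labelled genotypes, and KO below means the libraries labelled KO. The structure of the allele is not described in the labels. Reads summed over 4 Y-linked genes were 11.6 CPM in KO replicate 4 and 5.92 CPM in WT replicate 3, against 232.4 to 381.7 CPM in the other 5 libraries. Mitochondrially encoded RNA took 2.53% to 3.15% of the reads in KO and 3.25% to 4.75% in WT, with the highest share in WT replicate 2. Of 10 LT-HSC markers none passed the test in either direction with edgeR at an adjusted p below 0.05. At an unadjusted p below 0.05, 4 were lower. After adjustment 2 were lower in DESeq2 and 2 in limma voom. The summed level of the 10 was 998.3 to 1177 CPM in KO and 1248 to 1522 CPM in WT. Cd48, whose protein the gate excludes, was higher in KO, at 125.7 ± 15.2 CPM (SD, n = 4) against 23.8 ± 9.24 CPM (SD, n = 3) (edgeR adjusted p = 0.000804). It is 1 of 4 listed genes of the gate's exclusion or of other progenitors, and the other 3, Flt3, Cd34 and Dntt, were not called by edgeR. All 4 had higher CPM in every KO library than in any WT library and an unadjusted p below 0.05, and DESeq2 called 4 and limma voom 2 of them higher. Their summed level was 361.5 to 698.7 CPM in KO and 151.8 to 251.5 CPM in WT. Of 12 megakaryocyte and platelet markers 10 fell, with a summed level of 1297 to 2139 CPM in KO and 5540 to 12093 CPM in WT, and none of the 12 at 0 in any library. Of 7 mast cell and basophil markers 2 rose, Fcer1a and Hdc. At an unadjusted edgeR p below 0.05, 5 of the 7 were higher, and DESeq2 called 2 and limma voom 3 higher. The summed level of the 7 was 346.9 to 1270 CPM in KO and 13.0 to 305.9 CPM in WT. Gzmb was at 0 in WT replicates 2 and 3 and Ms4a2 at 0 in WT replicate 2. Of the erythroid markers 1 of 13 tested fell in edgeR. At an unadjusted edgeR p below 0.05, 3 of the 13 were higher and 3 lower. DESeq2 called 1 erythroid marker lower, and limma voom called 1 higher and 3 lower. Of the stromal and endothelial markers 1 of 6 rose in edgeR. At an unadjusted edgeR p below 0.05, in DESeq2 and in limma voom, 1 of the 6 was higher and 1 lower. Of the lymphoid markers 0 of 5 passed in edgeR. Of these 5, 2 were higher at an unadjusted edgeR p below 0.05, 0 were called by DESeq2 and 1 was called higher by limma voom. Of 11 granulocyte and monocyte markers tested, edgeR called 1 lower, S100a9, and 0 higher, with 5 lower and 3 higher at an unadjusted p below 0.05. Both DESeq2 and limma voom counted 4 lower and 2 higher in that list. In bulk RNA, fewer cells of a type and less RNA per cell cannot be told apart.

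All 10 genes were expressed in every library and passed the filter on low counts, and none passed the test between KO and WT. With edgeR at an adjusted p below 0.05, 0 of 10 were called, against 332 of 14695 genes tested (2.26%), of which 88 (0.599%) were higher and 244 (1.66%) were lower in KO. At an unadjusted p below 0.05 the count was 2 of 10, Foxo3 and Gpx4, against 14.6% of all genes. One gene, Gpx4, had groups whose CPM values did not overlap, against 15.7% of all genes. DESeq2 and limma voom each called 1 of 10, Gpx4, lower, against 3.36% and 2.99% of all genes. The median edgeR log2 fold change (KO minus WT) of the 10 was -0.25, with 8 below 0 and 2 above. Over all genes tested the median was 0.03, with quartiles at -0.25 and 0.32. Some of the signs depended on the scale. TPM, described below, is corrected for length. By TPM means KO was above WT for Cat (59.8 against 52.8), Prdx1 (1426 against 1414) and Prdx2 (601.7 against 531.3). Txnip was below (369.8 against 397.3), and the rest of the 10 kept their direction.

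**Figure D1:**
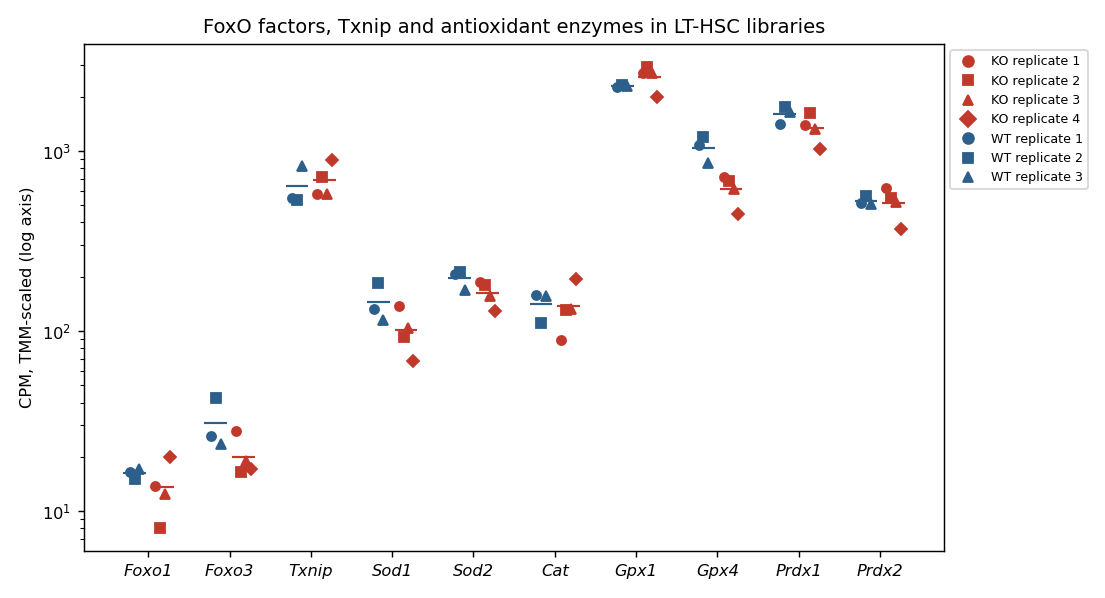
CPM of each of the 10 genes in the 4 KO and 3 WT libraries, on a log axis, with a point for each library and a horizontal line at each group mean. For Gpx4 all KO points lie below all WT points, and the groups overlap in the other 9 genes.

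Between genes, levels were compared in TPM, the abundance unit that is corrected for transcript length. Gpx1 stood highest in all 7 libraries, at 3828 TPM on average. Prdx1 and Gpx4 followed at 1421 and 1262 TPM, and they exchanged ranks between libraries: Gpx4 was above Prdx1 in WT replicates 1 and 2 and below it in the other 5. Prdx2 (571.5 TPM), Txnip (381.6 TPM) and Sod1 (234.5 TPM) held the ranks after them in every library. Cat (56.8 TPM) and Sod2 (46.6 TPM) exchanged ranks. Foxo3 at 5.18 TPM and Foxo1 at 1.79 TPM were the lowest in every library.

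Foxo3 is the FoxO factor best known for keeping blood stem cells quiescent, and Foxo1 is its close relative. Foxo1 (chromosome 3, 52268336 to 52353221, GRCm38, plus strand) stood at 13.8, 8.06, 12.4 and 20.0 CPM in KO and at 16.5, 15.1 and 17.2 CPM in WT. KO held both the lowest and the highest library, and the WT libraries lay close together between them. The group means were 13.6 ± 4.94 CPM (SD, n = 4) and 16.2 ± 1.06 CPM (SD, n = 3), a log2 fold change of -0.26 (SE 0.289, edgeR adjusted p = 0.709). Foxo3 (chromosome 10, 42181841 to 42276755, minus strand) stood at 27.6, 16.4, 18.9 and 17.2 CPM in KO and at 26.2, 42.2 and 23.5 CPM in WT. KO replicates 2, 3 and 4 lay below every WT library, and KO replicate 1 lay among them. The log2 fold change was -0.61 (SE 0.265, 95% interval -1.20 to -0.03), with an unadjusted p of 0.0418 that did not pass after adjustment (edgeR adjusted p = 0.320). Leaving out single libraries moved this value between -0.82 and -0.34, and none of these fits called it.

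TPM is corrected for length but lacks the library scaling (TMM) applied to CPM. In TPM Foxo3 did not overlap between the groups: 4.95, 3.61, 3.78 and 4.94 TPM in KO against 6.40, 6.54 and 6.03 TPM in WT. The share of all genes that do not overlap in TPM was not counted. In TPM WT replicate 2 no longer stands apart from the other WT libraries. With the deposited effective lengths as an offset in edgeR, the Foxo3 log2 fold change was -0.81 (adjusted p = 0.0738). Transcript Foxo3-203, 6848 nt long, took 92.6% to 98.6% of the Foxo3 reads. Foxo1 was at 1.64, 0.98, 1.57 and 2.94 TPM in KO and 1.91, 1.43 and 2.07 TPM in WT, and the group means, 1.78 ± 0.825 (SD, n = 4) and 1.80 ± 0.334 TPM (SD, n = 3), lay within their spread of each other. The ratio of Foxo3 to Foxo1 in TPM was 3.02, 3.69, 2.41 and 1.68 in KO and 3.35, 4.58 and 2.92 in WT, and these overlapped. Foxo4, the family's other member tested, was at 0.837 to 2.73 CPM in KO and 1.90 to 4.26 CPM in WT (log2 fold change -0.69, SE 0.519, edgeR adjusted p = 0.569). Foxo6 did not pass the filter on low counts and was not tested. Of the 3 family members tested, 0 were called by edgeR, DESeq2 or limma voom.

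Txnip holds thioredoxin inactive and limits glucose uptake, and is itself a known FoxO target. It stood at 576.6, 718.4, 578.5 and 887.3 CPM in KO and at 548.6, 533.0 and 820.7 CPM in WT. In CPM the groups overlapped, with KO replicate 4 highest and WT replicate 2 lowest. In edgeR the difference was 0.12 on the log2 scale (SE 0.215, 95% interval -0.35 to 0.60, adjusted p = 0.820). The sign of this value was not stable: it was -0.01 in limma voom and -0.36 with the length offset, -0.02 without KO replicate 4 and -0.01 without WT replicate 2. The gene's transcripts differ in length, and the short processed transcript Txnip-204 (599 nt) took unequal shares of its reads. That share was 19.5%, 6.45%, 9.92% and 0.0% in KO and 14.6%, 38.2% and 7.46% in WT. WT replicate 2 had the highest share and the lowest CPM, and KO replicate 4 the lowest share and the highest CPM. In TPM, WT replicate 2 was instead the highest library, at 444.3 TPM, and KO replicate 4 stood at 391.0 TPM. The TPM means were 369.8 ± 38.5 in KO (SD, n = 4) and 397.3 ± 59.5 in WT (SD, n = 3), and the groups overlapped.

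Of the 10 genes, Txnip was the only 1 whose promoter window held the FoxO core letters. The windows searched were RefSeq promoters (GRCm38.p6) from 250 bases before to 50 after the start, read on both strands. GTAAACA, the core of the FoxO motif, was in 3.65% of all 32851 such promoters. TGACNNNGC, a core form of the antioxidant response element bound by NRF2, was in 12.4% of them and, among the 10 genes, in Sod1 and Prdx1. The exact E-box letters CACGTG were in 7.15% of all promoters and in none of the 10. E-boxes and antioxidant response elements that differ from the letters given were not searched, so these counts do not cover them. The 7 genes other than Txnip, Sod1 and Prdx1 held none of the 3 motifs, and no hit overlapped another. A match describes letters and is not a binding site. The 150 bases before the start are shown for these 3 genes because they carry the only hits, all on the plus strand of the genome, with the matched letters in capitals. In Sod1 and Prdx1 the match reads on the opposite strand, so the capitals are its reverse complement. The windows are chr3:96557807-96557956 for Txnip, chr16:90220612-90220761 for Sod1 and chr4:116685449-116685598 for Prdx1, and the matches begin 121 (Txnip), 56 (Sod1) and 133 (Prdx1) bases before the start.
Txnip: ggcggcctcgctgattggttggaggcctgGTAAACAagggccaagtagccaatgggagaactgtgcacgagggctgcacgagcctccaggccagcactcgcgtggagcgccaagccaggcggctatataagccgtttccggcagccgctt
Sod1: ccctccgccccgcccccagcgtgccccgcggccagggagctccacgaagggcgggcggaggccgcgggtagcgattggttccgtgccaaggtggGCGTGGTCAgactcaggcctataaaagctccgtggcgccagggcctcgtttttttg
Prdx1: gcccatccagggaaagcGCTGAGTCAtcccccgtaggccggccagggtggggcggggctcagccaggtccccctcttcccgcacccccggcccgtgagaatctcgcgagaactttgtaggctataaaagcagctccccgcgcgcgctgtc

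Sod1 and Sod2 remove superoxide in the cytosol and in mitochondria. Sod1 stood at 137.9, 92.6, 103.6 and 68.3 CPM in KO and at 132.1, 185.6 and 115.1 CPM in WT. KO replicates 2, 3 and 4 lay below every WT library, and KO replicate 1 lay above WT replicates 1 and 3. The means were 100.6 ± 28.9 CPM (SD, n = 4) and 144.3 ± 36.8 CPM (SD, n = 3), a log2 fold change of -0.52 (SE 0.244, 95% interval -1.06 to 0.02, edgeR adjusted p = 0.361). Sod2 stood at 187.9, 179.0, 156.5 and 129.7 CPM in KO and at 207.2, 212.1 and 168.3 CPM in WT, with KO replicates 1 and 2 above WT replicate 3. In edgeR the Sod2 difference was -0.26 on the log2 scale (SE 0.172, 95% interval -0.64 to 0.12, adjusted p = 0.515). The ratio of Sod1 to Sod2 in TPM ran from 3.77 to 5.53 in KO and from 4.78 to 7.19 in WT.

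Cat encodes catalase, which splits hydrogen peroxide in peroxisomes and is a known FoxO target. It stood at 89.3, 131.1, 132.6 and 195.0 CPM in KO and at 158.8, 111.1 and 155.9 CPM in WT. KO held the lowest and the highest library, replicates 1 and 4. The edgeR estimate was -0.05 on the log2 scale (SE 0.246, 95% interval -0.60 to 0.49, adjusted p = 0.938), and it took the other sign, 0.09, without KO replicate 1. The interval leaves room for a change in either direction. In the wider list of 5 dismutase and catalase genes 4 were tested, none of them passed in edgeR, DESeq2 or limma voom or had an unadjusted edgeR p below 0.05, and the median was -0.21. Ccs, the copper chaperone of Sod1, was at 64.9 ± 6.84 CPM (SD, n = 4) in KO and 72.6 ± 1.46 CPM (SD, n = 3) in WT.

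Gpx1 and Gpx4 are glutathione peroxidases that carry selenocysteine, an amino acid encoded by an in-frame TGA that would otherwise stop translation. Gpx1 acts on hydrogen peroxide, and Gpx4 on lipid peroxides in membranes, where it protects cells from ferroptosis. The coding windows around the TGA are shown because these codons mark the selenoproteins described here, among them 3 further genes of the lists whose values are given below. Each is the spliced coding sequence of GENCODE M21 (GRCm38) with 24 bases on either side of the codon in capitals. The codon is number 47 in Gpx1-201, 73 in Gpx4-202, 33 in the shorter coding part of Gpx4-207, 73 in Gpx3-201, 48 in Selenom-201 and 95 in Msrb1-201, counted from the ATG. Gpx4-202 and Gpx4-207 have the same window. Gpx7-201 and Gpx8-201 had 0 in-frame TGA codons before their stop.
Gpx1: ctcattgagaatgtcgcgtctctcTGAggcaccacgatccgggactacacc
Gpx4: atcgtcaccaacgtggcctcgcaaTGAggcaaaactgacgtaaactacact
Gpx3: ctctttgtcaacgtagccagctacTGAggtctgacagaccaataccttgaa
Selenom: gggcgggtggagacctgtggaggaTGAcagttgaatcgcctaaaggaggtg
Msrb1: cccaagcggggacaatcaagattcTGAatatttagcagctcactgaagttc

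Gpx1 (chromosome 9, 108338903 to 108340343, plus strand) stood at 2708, 2920, 2717 and 1980 CPM in KO and at 2266, 2329 and 2295 CPM in WT. KO replicates 1, 2 and 3 lay above every WT library and KO replicate 4 below every one. In TPM, which is corrected for length but lacks the library scaling (TMM) applied to CPM, KO replicate 4 lay above every WT library. The groups did not overlap in TPM: 4203, 4479, 4381 and 3746 TPM in KO against 3364, 2925 and 3696 TPM in WT. The share of all genes that do not overlap in TPM was not counted. For Gpx1 edgeR gave a log2 fold change of 0.17 (SE 0.163, 95% interval -0.19 to 0.53, adjusted p = 0.663), and 0.11 with the length offset (adjusted p = 0.779). Gpx4 (chromosome 10, 80047166 to 80056439, plus strand) stood at 719.7, 681.0, 611.2 and 444.2 CPM in KO and at 1075, 1192 and 857.2 CPM in WT. Every KO library lay below every WT library. The means were 614.0 ± 122 CPM (SD, n = 4) and 1041 ± 170 CPM (SD, n = 3), 0.59 times the WT level (95% interval 0.44 to 0.80). The log2 fold change was -0.76 (SE 0.196, unadjusted p = 0.00271), and edgeR did not call it after adjustment (adjusted p = 0.0849).

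The Gpx4 call depended on the tool. The gene was lower in DESeq2 (log2 fold change -0.78, adjusted p = 0.00753) and in limma voom (-0.64, adjusted p = 0.0259). It was lower in edgeR with a term for the presence of Y-linked reads (-0.81, adjusted p = 0.00656), where 2.69% of all genes were called lower. It was also lower in edgeR among the 5 libraries with Y-linked reads (-0.74, adjusted p = 0.0436), where 1.7% were. Over the 19 alternatives the adjusted p ran from 0.00656 to 0.230. The value stayed between -0.90 and -0.62 when single libraries were left out, with adjusted p from 0.0777 to 0.230, and none of these 7 fits called it. Gpx4-ps2, a pseudogene that shares sequence with Gpx4, received 0.0989% to 0.181% as many reads as Gpx4 itself. The coding transcripts Gpx4-202 and Gpx4-207 shared the reads about equally in both groups, 47.9% ± 1.92 and 51.3% ± 2.22 in KO (SD, n = 4) and 46.8% ± 4.10 and 52.8% ± 4.05 in WT (SD, n = 3). The megakaryocyte and platelet marker sums given above were lower in the same KO libraries, and their part in the Gpx4 values was not tested.

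**Figure D2:**
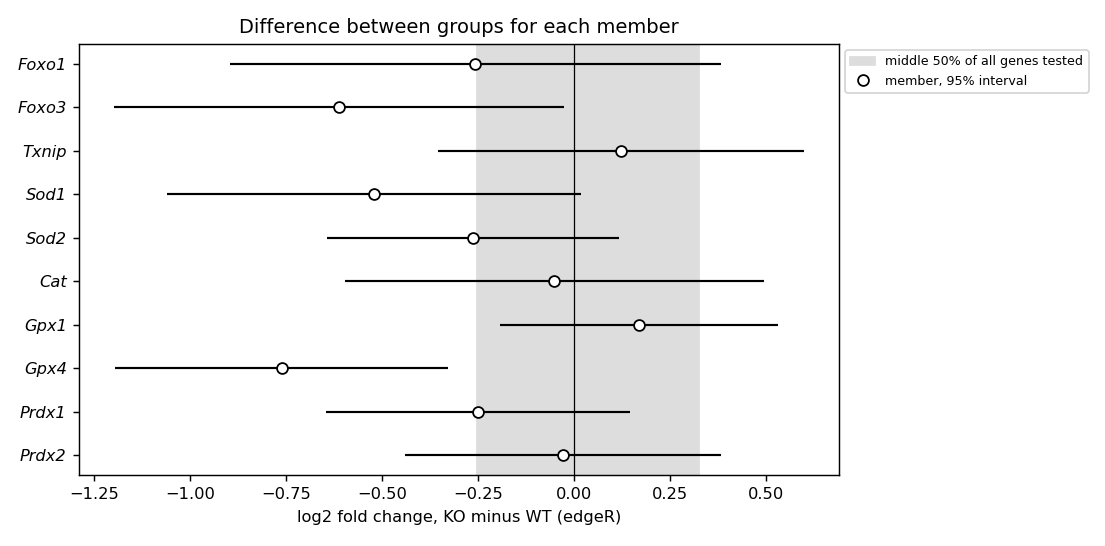
Log2 fold change (KO minus WT) of the 10 genes from edgeR, with points for the estimates, lines for their 95% intervals and a grey band for the middle 50% of all genes tested. The intervals of Gpx4 (-1.19 to -0.33) and Foxo3 (-1.20 to -0.03) lie below 0 before adjustment for the number of genes tested.

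Relative to Gpx1, Gpx4 was low in every KO library. The ratio of Gpx4 to Gpx1 in TPM was 0.279, 0.242, 0.234 and 0.232 in KO and 0.497, 0.539 and 0.388 in WT. The KO ratios lay close together and below all WT ratios. This ratio was chosen after its values were seen and is given without a test. The 7 enzymes Sod1, Sod2, Cat, Gpx1, Gpx4, Prdx1 and Prdx2 summed to 7585 ± 612 TPM in KO (SD, n = 4) and 7200 ± 486 TPM in WT (SD, n = 3), and these sums overlapped. Within the sum, Gpx1 took 55.4% ± 1.27 in KO and 46.1% ± 2.29 in WT, and Gpx4 13.7% ± 0.897 and 21.8% ± 2.67. These shares depend on each other, because they are parts of one sum. Gpx1-204, whose annotated coding part lacks the in-frame TGA, took 37.98% to 39.07% of the Gpx1 reads in KO and 34.9% to 39.8% in WT.

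**Figure D3:**
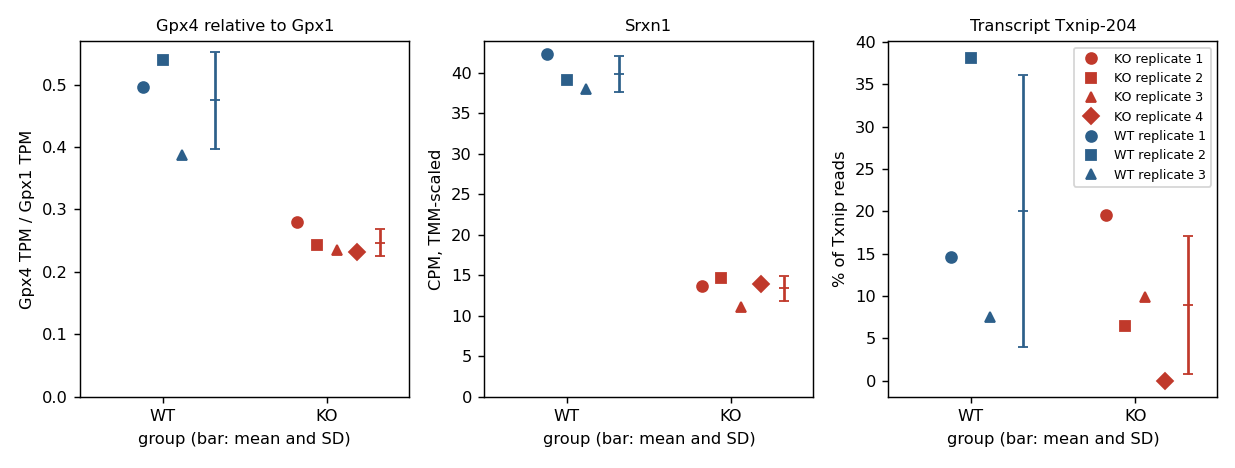
Ratio of Gpx4 to Gpx1 in TPM, CPM of Srxn1, and the percentage of Txnip reads on transcript Txnip-204, with a point for each library and bars for the mean and SD of WT and KO. The KO and WT points are apart for the ratio and for Srxn1 and mixed for Txnip-204.

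Prdx1 and Prdx2 are peroxiredoxins of the cytosol, which reduce hydrogen peroxide with a reactive cysteine and are reset by thioredoxin. Prdx1 stood at 1400, 1630, 1320 and 1028 CPM in KO and at 1401, 1758 and 1638 CPM in WT. KO replicates 1, 3 and 4 lay below every WT library, the first of them by less than 1 CPM. For Prdx1 edgeR gave a log2 fold change of -0.25 (SE 0.179, 95% interval -0.65 to 0.15, adjusted p = 0.549). Prdx2 stood at 624.1, 548.0, 522.8 and 367.3 CPM in KO and at 513.2, 559.1 and 505.7 CPM in WT. KO held the highest and the lowest library, replicates 1 and 4. The edgeR estimate for Prdx2 was -0.03 on the log2 scale (SE 0.187, 95% interval -0.44 to 0.38, adjusted p = 0.956), and it was 0.11 without KO replicate 4. Prdx2 overlaps Junb and Rnaseh2a, with 146 and 135 shared 31-base words, and the library kit marks no strand, so reads in the overlap cannot be told apart.

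In CPM, some libraries stood at the extreme for many of the 10 genes. KO replicate 4 was the lowest of the 7 libraries in 6 of the 10 genes, Sod1, Sod2, Gpx1, Gpx4, Prdx1 and Prdx2, and the highest in 3, Foxo1, Txnip and Cat. Among all genes tested it was the lowest in 25.5% and the highest in 26.8%. WT replicate 2 was the highest in 5 of the 10, Foxo3, Sod1, Sod2, Gpx4 and Prdx1, against 25.1% of all genes. Sod1 ranged most widely among the 10 after centring on the log2 CPM scale, by 1.44 from lowest to highest library. The 3 protein-coding genes closest to it over the 7 libraries were Pabpc1, the poly(A)-binding protein, with a root-mean-square difference of 0.0539 on the log2 scale, Hnrnpul2 with 0.0545 and Stard4 with 0.0605. Like Sod1, all 3 were lowest in KO replicate 4 and highest in WT replicate 2, and none of the 3 passed the test between KO and WT. Because the 3 were picked for likeness to Sod1 over these same libraries, this follows from the choice.

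Genes around the 10 were read from lists of their pathways. Of 27 upstream genes of the PI3K and AKT pathway and other FoxO regulators, all were tested, 1 rose, none fell, and the median log2 fold change was -0.16. Of all genes tested, 0.599% rose and 1.66% fell. At an unadjusted edgeR p below 0.05, 5 of the 27 were higher and 4 lower, against 14.6% of all genes in either direction. In 11 of the 27 the CPM values of the groups did not overlap, against 15.7% of all genes. The gene that rose was Atm, a kinase of the DNA damage response, at 35.4, 34.3, 36.5 and 32.9 CPM in KO and 23.1, 18.7 and 19.2 CPM in WT (log2 fold change 0.77, SE 0.174, edgeR adjusted p = 0.0494). This call was at the threshold. It held in 6 of the 19 alternatives and, of the 7 fits without 1 library, only in that without KO replicate 4. Over those 7 fits the log2 fold change was 0.69 to 0.86, with adjusted p up to 0.163. Of 40 FoxO targets 34 were tested, none rose, 1 fell, and the median was -0.10. Ccnd1, the cyclin that moves cells out of G1, fell from 30.1 ± 5.85 CPM (SD, n = 3) in WT to 9.65 ± 3.66 CPM (SD, n = 4) in KO (log2 fold change -1.64, SE 0.331, edgeR adjusted p = 0.0291). FoxO proteins are known to repress this gene, while most of the list is known to be activated by them. The Ccnd1 call was lost with the length offset (-0.98, adjusted p = 0.220). It was lost without KO replicate 2 (adjusted p = 0.0559) or 3 (0.0775) and without WT replicate 1 (0.108) or 2 (0.101).

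Of 21 thioredoxin and peroxiredoxin genes, all tested, 1 fell and none rose, and the median was -0.10. Srxn1, sulfiredoxin, which restores peroxiredoxins whose cysteine has been overoxidised, was at 13.7, 14.7, 11.1 and 13.97 CPM in KO and at 42.3, 39.2 and 37.98 CPM in WT. Both groups were tight and far apart. In edgeR Srxn1 fell by 1.57 on the log2 scale (SE 0.181, adjusted p = 0.000935), and it was called lower in all 19 alternatives. Of its substrates, Prdx1, Prdx2 and Prdx3 were not called. Prdx3 stood at 233.6 ± 14.7 CPM in KO (SD, n = 4) and 230.0 ± 15.4 CPM in WT (SD, n = 3). Among the other members of the list that did not pass, chosen here after their values were seen, Prdx4 had a log2 fold change of -0.64 (edgeR adjusted p = 0.0863) and Prdx5 -0.71 (0.0951). Msrb1, a selenoprotein that repairs oxidised methionine, had -1.03 (0.0936). Txnrd1, the selenoprotein that recharges thioredoxin, had 0.42.

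Of 26 glutathione genes, all tested, 1 fell and none rose, and the median was -0.07. Gpx8, a peroxidase of the endoplasmic reticulum without selenocysteine, was at 1.68, 2.59, 0.878 and 1.43 CPM in KO and at 6.86, 10.1 and 10.6 CPM in WT (log2 fold change -2.48, SE 0.399, edgeR adjusted p = 0.0077). It was called lower in all 19 alternatives. Gpx3, the secreted peroxidase, picked with its values in view, was low, at 0.343 ± 0.149 CPM in KO (SD, n = 4) and 1.51 ± 0.185 CPM in WT (SD, n = 3), and did not pass (edgeR adjusted p = 0.0902).

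NRF2 (gene Nfe2l2) is the main activator of antioxidant genes under oxidative stress. Of 20 of its regulators and targets, all tested, 3 fell and none rose, against 1.66% and 0.599% of all genes, and the median was -0.22. Besides Srxn1, which 2 of the lists hold, these were Me1, malic enzyme, at 1.64 ± 0.668 CPM in KO (SD, n = 4) and 6.09 ± 1.15 CPM in WT (SD, n = 3), and Hmox1, haem oxygenase, at 1.27 ± 0.191 and 4.41 ± 1.55 CPM. The edgeR adjusted p was 0.0449 for Me1 (log2 fold change -1.89) and 0.0497 for Hmox1 (-1.80). Me1 was called in 10 and Hmox1 in 9 of the 19 alternatives. Of the fits without 1 library, Me1 was called only in that without KO replicate 4, with values from -2.14 to -1.64 and adjusted p up to 0.136. Hmox1 was called only in that without WT replicate 2, with values from -2.09 to -1.64 and adjusted p up to 0.166. Of the 20 log2 fold changes in the NRF2 list, 15 were below 0 and 5 above. At an unadjusted edgeR p below 0.05, 6 were lower and 0 higher, against 14.6% of all genes in either direction. Picked with their values in view, Nfe2l2 itself (log2 fold change 0.15), Nqo1 (0.09) and Gclc (-0.05) were not called. The promoter window of Srxn1 and 1 window of Me1 held the TGACNNNGC letters, as did 12.4% of all promoters. The other Me1 window did not hold them, and no window was found for Hmox1. Forms of the element with other letters were not searched.

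Of 15 genes for sources of reactive oxygen 13 were tested, 1 fell and none rose, and the median was 0.05. Alox12, the lipoxygenase of platelets, was at 1.60, 1.81, 2.30 and 4.89 CPM in KO and at 191.7, 185.5 and 173.3 CPM in WT (log2 fold change -6.09, SE 0.364, edgeR adjusted p = 1.05e-05). It was called in all 19 alternatives. The platelet chemokine Ppbp, one of the 10 platelet markers that fell, had 17.02 ± 3.26 CPM in KO (SD, n = 4) and 2460 ± 1061 CPM in WT (SD, n = 3). Of 15 genes of selenoprotein synthesis and selenoproteins, all tested, 1 fell and none rose, and the median was -0.15. Selenom, an oxidoreductase of the endoplasmic reticulum, was at 31.6, 39.6, 35.4 and 19.2 CPM in KO and at 62.6, 107.3 and 68.4 CPM in WT (log2 fold change -1.34, SE 0.266, edgeR adjusted p = 0.0274). That call was lost without KO replicate 1 (adjusted p = 0.0549) or 3 (0.0613) and without WT replicate 2 (-1.08, adjusted p = 0.108) or 3 (0.0558). The megakaryocyte and platelet marker sums were lower in KO beside each of these lower genes, and their part in these results was not tested.

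**Figure D4:**
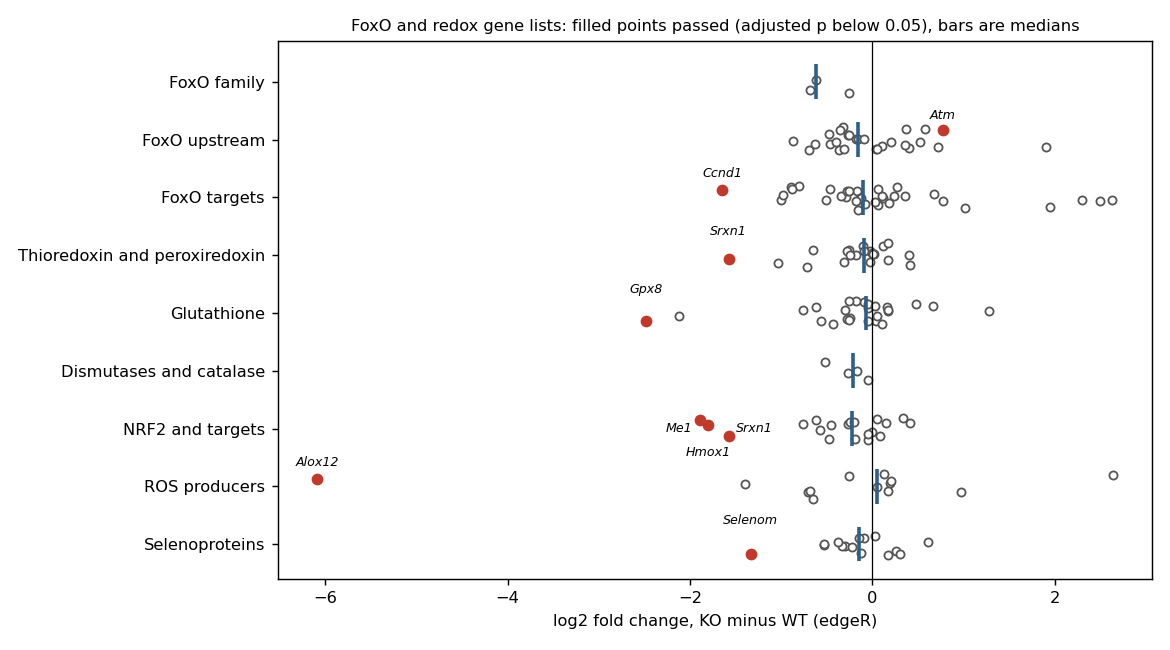
Log2 fold change (KO minus WT, edgeR) of every tested gene of 9 FoxO and redox lists, 1 row per list, with filled points for genes at an adjusted p below 0.05 and a bar at the median of the list. List medians lie between -0.61 and 0.05, and the named points are the genes that passed.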

How the data were processed

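RNA from 7 libraries of sorted LT-HSCs was prepared with a SMART-Seq v4 kit, which marks no strand, per the labels' protocols. The tools and build named in the submitters' processing notes are cutadapt, Salmon 0.11.2 and mm10, and those notes name no transcript set. The authors deposited estimated counts, TPM and effective lengths per transcript. Reads that fit several transcripts are split by Salmon, so similar genes can exchange reads. Of 112092 transcripts, 111787 matched GENCODE M21 (GRCm38), and the 305 unmatched held 0.0836% to 0.123% of reads.

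Estimated counts were summed per gene, rounded and tested in R 4.3.3 with edgeR 4.0.16 (quasi-likelihood test, TMM, filterByExpr, Benjamini-Hochberg over 14695 genes, threshold 0.05). Log2 fold changes are KO minus WT, and CPM values use TMM-adjusted library sizes. TPM was summed per gene from the deposited values, without TMM scaling. The 19 alternatives included DESeq2 1.42.0, limma 3.58.1 (voom with quality weights), other scalings and filters, an offset from the deposited effective lengths, a replicate block, a term for Y-linked reads and each library left out. The procedures were tested on simulated data. Groups came from the labels.

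The members and lists were chosen with earlier results of these data known. Genes named beyond the 10 were those of each list past the threshold, otherwise the 2 of smallest p, the other FoxO genes, B4galt1 and the 3 genes most like the widest-ranging member. Other genes are marked in the text as picked with their values in view, or are markers, substrates or chaperones of named genes.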

Additional observations from a re-analysis of the deposited data

Results flagged for a closer look

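In 40 quantities the KO libraries were examined for 1 library standing apart from the others. In 3 of these quantities 1 did so by Dixon's gap criterion, which chance meets in about 1 in 20 groups. The WT libraries were not examined in this way. KO replicate 1 had 19.32 CPM of B4galt1 RNA, while the other KO libraries had 14.56 to 14.93 CPM. The share of Gpx1 reads on transcript Gpx1-204 was 37.98% in KO replicate 3 and 38.95% to 39.07% in the others, a small gap in a tight group. The share of Prdx2 reads on transcript Prdx2-201 was 15.72% in KO replicate 1 and 19.41% to 20.11% in the others. None of the 3 concerns the summed level of a gene among the 10.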

How the results depend on the processing

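The count of genes higher and lower in KO, 88 and 244 in edgeR, was 378 and 567 in DESeq2, 269 and 439 in limma voom, and 218 and 396 with a term for Y-linked reads. The higher count was 214 with the length offset. Of the 10 genes, 1 (Gpx4) was called lower in DESeq2, in limma voom, with the term for Y-linked reads and among the 5 libraries with Y-linked reads, an alternative chosen after seeing the data, and 0 in the other 15. Leaving out each library gave 30 to 130 higher and 157 to 279 lower genes, with 0 of the 10 called each time. The lowest higher counts came without KO replicate 3 (30), WT replicate 2 (37), KO replicate 2 (38), WT replicate 1 (39) and WT replicate 3 (45), and the lowest lower count without KO replicate 2 (157). The counts rose to 130 and 279 without KO replicate 4. The cause of these shifts was not tested.

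Signs reversed for Txnip, Prdx2, Cat and B4galt1. Txnip was -0.0055 in limma voom, -0.364 with the length offset, -0.0001 with the replicate block, -0.0165 without KO replicate 4 and -0.0147 without WT replicate 2. Prdx2 was 0.0607 in limma voom, 0.1004 with the block, 0.1123 without KO replicate 4 and 0.088 in the 5 libraries. Cat was 0.0879 without KO replicate 1, 0.0191 without WT replicate 1 and 0.0023 without WT replicate 3, and B4galt1 was 0.0369 without WT replicate 2. Over all single-library omissions Txnip ran from -0.0165 to 0.3352, Cat from -0.2665 to 0.0879, Prdx2 from -0.1484 to 0.1123 and B4galt1 from -0.4675 to 0.0369. The cause was not tested.

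In DESeq2 and limma voom respectively, lists gave other counts. FoxO regulators had 2 lower in DESeq2 and 2 higher in limma voom. FoxO targets had 1 and 2 higher and 2 and 2 lower. Thioredoxin genes had 4 and 4 lower, glutathione genes 3 and 3 lower, NRF2 genes 4 and 4 lower, and selenoprotein genes 1 and 1 higher. Reactive oxygen sources had 1 higher in DESeq2, and 3 and 2 lower. The median over all genes shifted by between -0.0363 and 0.00198 on the log2 scale over the alternatives.

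The labels state no pairing by replicate number, and deviations of same-numbered libraries from their group means correlated at -0.053, -0.120 and -0.039. So few values cannot exclude a pairing or a shared batch. With the replicate block, 58 genes were higher and 182 lower, and 0 of the 10 were called. The numbers of reads limit Foxo1 most, at 218 to 741 estimated reads per library.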
